A study of Mus musculus with 6 samples.

Results

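ATF3 peaks that were present both in resting and in HDL-treated macrophages, at sites off annotated repeats, were compared for the density of their ChIP-seq tags. A peak entered when a standard wildtype (WT) peak called with HDL overlapped a standard WT peak called without stimulus by at least 1 bp, and when the deposited annotation named no repeat at the centre of either. This gave 587 of 5319 HDL peaks, paired with 586 of 2779 unstimulated peaks, nearest to 527 genes. In all, 2008 HDL peaks overlapped an unstimulated one, 1070 of them on a repeat in both lists and 351 in one list. The series holds 11888 standard peaks over its 3 conditions.

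The cells were bone marrow-derived macrophages, grown from the marrow of C57BL/6 mice aged 6 to 8 weeks in M-CSF at 40 ng/ml over 6 days. WT cells were Atf3 +/+ and knockout (KO) cells Atf3 -/-, with no further detail of the deleted allele in the labels. Both genotypes were left unstimulated or received HDL at 2 mg/ml for 6 h. A further pair of libraries received HDL and then CpG at 100 nM for 4 h. That pair was used to sort the sites, and its WT densities were set beside those of the other conditions. ATF3 was pulled down with a polyclonal antibody raised in rabbits (2.5 µg), and DNA of 150 to 250 bp went into sequencing. By the labels 3 biological replicates stand behind a group, and their reads were joined before alignment, so each condition and genotype is 1 pooled library. No spread between mice or cultures can be taken from such libraries and no test was possible. Every interval given is a 95% interval of counting error only, and a condition cannot be told apart from its library. The libraries hold 37137377 (WT) and 75534584 (KO) reads without stimulus and 37930363 (WT) and 66061648 (KO) reads with HDL. Tags are scaled to a library of 10000000, and a density is the number of scaled tags per kb of the peak as called in that condition. Peaks carry no measure of expression, so neither the cell type nor the loss of Atf3 could be checked from these values.

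ATF3 is a stress-induced basic leucine zipper (bZIP) factor of the ATF/CREB family that often acts as a repressor and dampens inflammatory genes in macrophages. bZIP factors bind DNA as dimers. Dimers with JUN proteins favour the AP-1 sequence TGAGTCA, dimers of the CREB type the cAMP response element (CRE) TGACGTCA, and dimers of an ATF with a C/EBP protein the composite C/EBP-ATF response element (CARE) TGATGCAA, which is known from genes of amino acid supply and of the integrated stress response. High-density lipoprotein (HDL) removes cholesterol from macrophages and can induce ATF3. KO cells have no ATF3, so tags at a site in the KO library measure what the antibody and the chromatin give without it.

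The sites themselves show both kinds of sequence. Those below were read from the reference of mm9 (NCBIM37), 5′ to 3′ on the strand that holds the letters, and the capitals mark the bZIP sequence nearest to the centre of the HDL peak. The first set are AP-1 sites at distal peaks near genes described below, chosen to show the most frequent sequence.
Cd36, intron 1, chr5:17385910-17385976, plus strand: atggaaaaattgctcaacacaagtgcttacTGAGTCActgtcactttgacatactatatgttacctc
Slc6a6, intron 2, chr6:91663010-91663076, plus strand: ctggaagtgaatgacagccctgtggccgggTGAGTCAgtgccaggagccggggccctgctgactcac
Klf13, distal, chr7:71156761-71156827, plus strand: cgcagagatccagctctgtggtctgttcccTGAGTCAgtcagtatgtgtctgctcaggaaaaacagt
Jarid2, distal, chr13:44755353-44755419, plus strand: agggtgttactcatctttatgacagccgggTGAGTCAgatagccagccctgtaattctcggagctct
Il1b, upstream, chr2:129199300-129199366, minus strand: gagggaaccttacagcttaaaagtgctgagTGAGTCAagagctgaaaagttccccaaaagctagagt
The second set holds the CARE letters. It is shown because this sequence was the most frequent of the 3 bZIP sequences at the promoters, and because it also lay at distal sites.
Atf3, promoter, chr1:193007304-193007333, plus strand: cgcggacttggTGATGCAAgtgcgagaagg
Yars, promoter, chr4:128867139-128867168, plus strand: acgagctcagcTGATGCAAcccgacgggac
Iars, promoter, chr13:49777495-49777524, minus strand: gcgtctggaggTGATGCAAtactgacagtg
Ppp1r15b, promoter, chr1:135027672-135027701, plus strand: ctaggtccggcTGATGCAActcgccgcgtg
Pycr1, promoter, chr11:120505147-120505176, minus strand: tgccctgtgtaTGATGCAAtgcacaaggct
Atf3, 18.0 kb upstream, chr1:193025262-193025329, minus strand: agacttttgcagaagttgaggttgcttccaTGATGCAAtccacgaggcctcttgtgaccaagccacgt
Nfkbiz, distal, chr16:55754678-55754745, minus strand: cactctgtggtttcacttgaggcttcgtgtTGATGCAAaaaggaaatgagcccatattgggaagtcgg
Spp1, distal, chr5:104825518-104825585, plus strand: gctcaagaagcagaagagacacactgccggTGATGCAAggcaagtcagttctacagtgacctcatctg
B4galt5, distal, chr2:167200739-167200806, minus strand: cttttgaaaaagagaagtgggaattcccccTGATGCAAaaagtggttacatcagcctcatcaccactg
The last is the single CRE among the shared peaks.
Becn1, promoter, chr11:101163589-101163618, plus strand: aggaccagaagTGACGTCAcgacgggagct

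At most shared sites the WT density was slightly higher with HDL than without. The WT density ran from 9.09 to 1032 tags per kb without stimulus, with a median of 15.2, and from 9.48 to 853 with HDL, with a median of 17.7. The ratio of HDL to unstimulated density had a median of 1.11, an interquartile range of 0.943 to 1.31 and limits of 0.532 and 2.13. It was above 1 at 391 of 587 sites (66.6%). At 70 sites (11.9%) the WT density was at least 1.5-fold higher with HDL, against 13.4% of all 2008 shared peaks, and at 12 (2.04%) at least 1.5-fold lower, against 3.49% of them. The counting interval of the ratio lay above 1 at 89 sites (15.2%, against 17.9% of all shared peaks) and below 1 at 22 (3.75%, against 5.28%). These shares are near the background of all shared peaks and are not a result about sites off repeats. The count of denser sites also depended on the scale. It was 43 (7.33%), at a median ratio of 1.03, when densities were scaled by the shared peaks on repeats, and 208 of 505 (41.2%), at a median of 1.38, when the KO density was subtracted from the WT density. Peaks on a repeat in both lists had a median ratio of 1.08. Single sites rested on few reads, with a median of 46 WT reads per peak without stimulus and 59 with HDL, so that most single ratios have intervals that include 1.

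The width of the called peak weighs on these ratios. The HDL peak was the wider at 359 of 587 sites, with a median of 854 bp against 799 bp. Counted per peak in place of per bp, 124 sites had at least 1.5-fold more tags with HDL and 22 at least 1.5-fold fewer. Of the 70 denser sites, 68 also had more tags per peak, 46 of them by at least 1.5-fold. Of the 12 less dense sites, 11 had a wider HDL peak, 10 had fewer tags per peak, and 2 had at least 1.5-fold fewer.

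**Figure D1:**
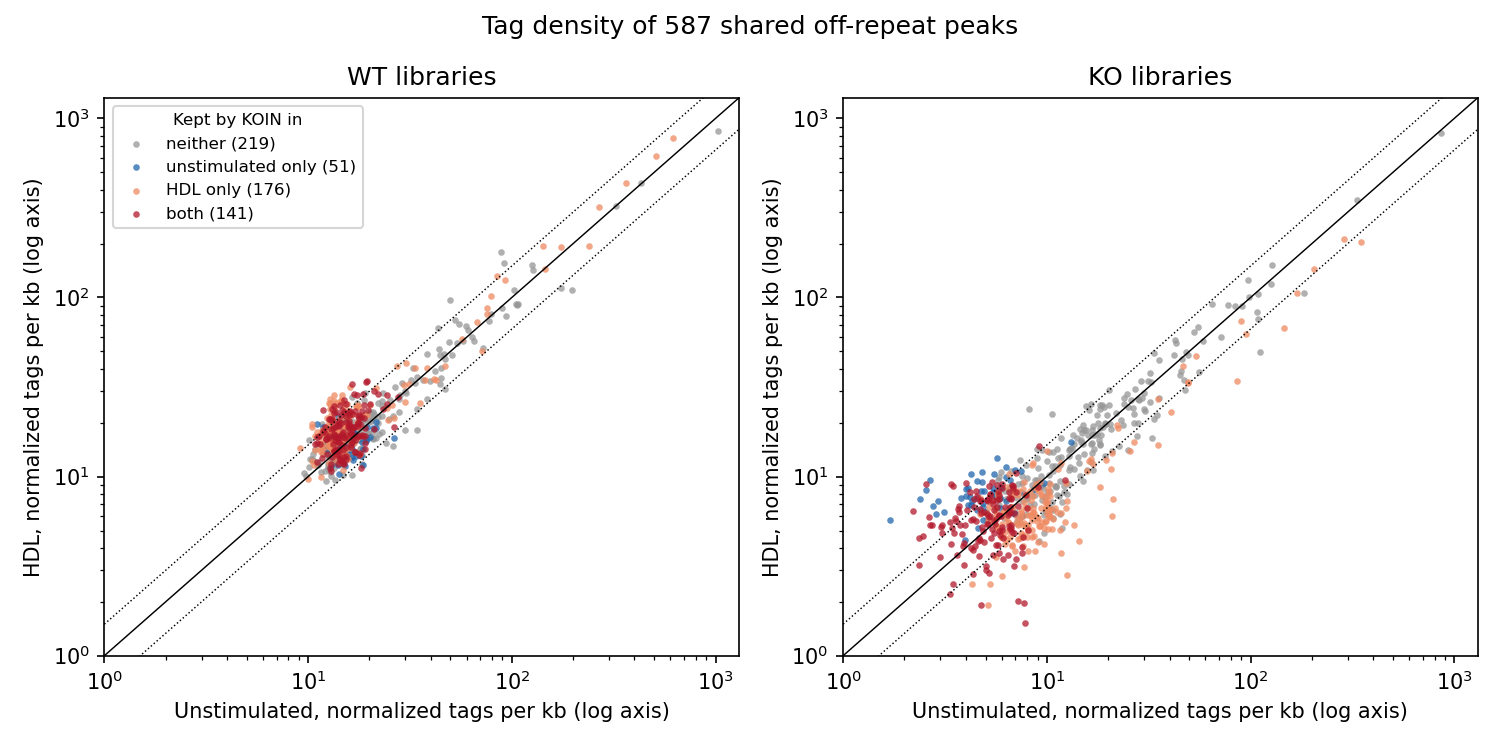
Normalized tags per kb of 587 shared off-repeat peaks, unstimulated (horizontal, log axis) and with HDL (vertical, log axis), in the WT libraries (left) and the KO libraries (right). Each point is a peak, coloured by the conditions in which KOIN kept it, the solid line is equality and the dotted lines are 1.5-fold. WT points lie mostly within the dotted lines, while KO points of low density scatter further, and the site with the most WT tags per kb, at Cdk5rap2, also has the most KO tags per kb. The sites were chosen by calls in WT and not in KO, so the scatter is not compared on equal terms.

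The KO libraries showed how far the same sites moved without ATF3. The KO density had a median of 8.06 tags per kb without stimulus and 7.75 with HDL, and its ratio a median of 0.970 with an interquartile range of 0.731 to 1.27. This range is wider than that of the WT ratio. The median reads per peak were 47 in KO and 46 in WT without stimulus, and 43 in KO and 59 in WT with HDL. The sites were chosen by calls in both WT libraries, with no such condition on KO. The spreads of the WT and KO ratios are therefore not compared on equal terms. At 77 sites (13.1%, against 8.22% of all shared peaks) the KO density was at least 1.5-fold higher with HDL, and at 114 (19.4%, against 25.3%) at least 1.5-fold lower. The counting interval of the KO ratio lay off 1 at 188 sites (32.0%), and that of the WT ratio at 111 (18.9%). For the same reason these counts are not compared on equal terms. Over all shared peaks the WT interval lay above 1 at 17.9% and below 1 at 5.28%, and the KO interval was not counted there. Of the 70 sites that were denser in WT, 17 were also at least 1.5-fold denser in KO. Of the 12 less dense sites, 7 were at least 1.5-fold less dense in KO too. Across the 587 sites, which share the 4 libraries, the log2 WT ratio and the log2 KO ratio had a Pearson's r of 0.19 and a Spearman's rho of 0.16.

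The median WT/KO of the shared sites was higher with HDL than without, but the medians were close at the sites of highest score. The ratio of WT to KO tags in a peak had a median of 1.83 (interquartile range 1.37 to 2.54) without stimulus and of 2.31 (1.63 to 3.04) with HDL. At the 88 sites with a MACS score, the caller's own rank of a peak, of at least 100 in both lists, the medians were 1.24 and 1.26. The change within a site still had a median of 1.13 at these 88. WT/KO was above 1 at 533 and 528 of the 587 sites, and above 2 in both conditions at 207. The change of WT/KO from unstimulated to HDL had a median of 1.14 and was above 1 at 368 sites (62.7%). Its interval lay above 1 at 117 sites (19.9%, against 28% of all shared peaks) and below 1 at 32 (5.45%, against 4.68%). On repeats in both lists the median WT/KO was lower, at 1.43 without stimulus and 2.09 with HDL, and the KO ratio had a median of 0.848, against 0.970 off repeats.

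**Figure D2:**
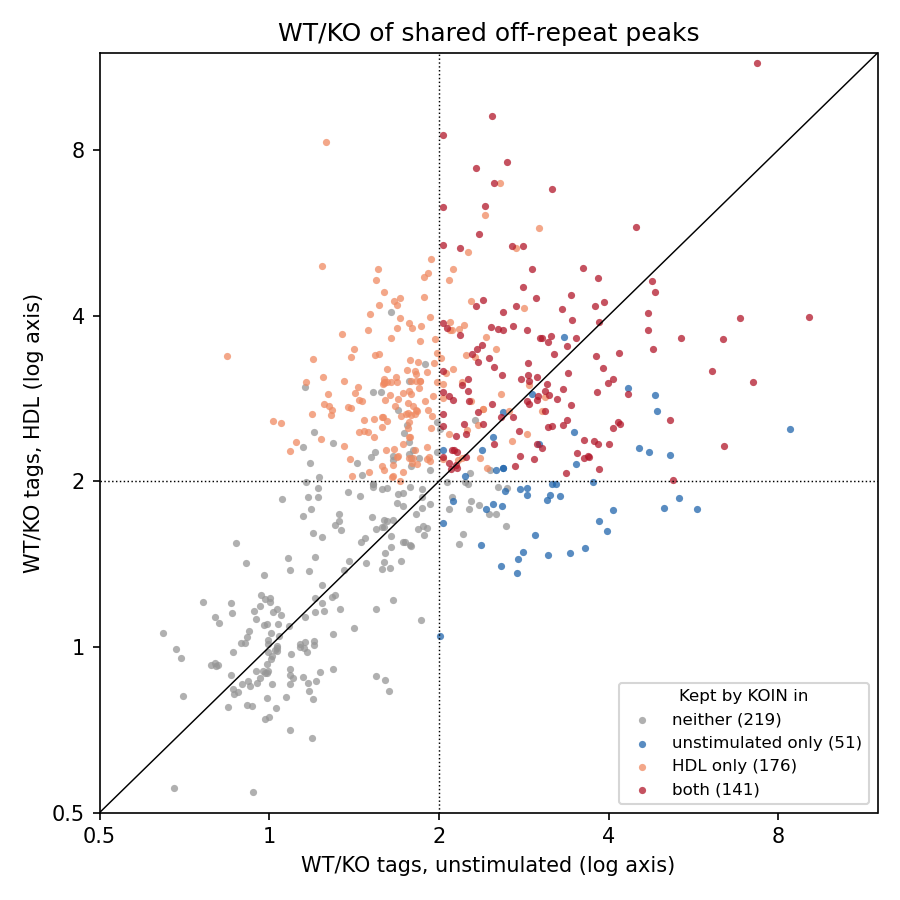
WT/KO ratio of normalized tags at the 587 shared off-repeat peaks, unstimulated (horizontal, log axis) and with HDL (vertical, log axis), coloured by the conditions in which KOIN kept the peak. The solid line is equality and the dotted lines mark a ratio of 2. Peaks kept in neither condition have medians of 1.22 without stimulus and 1.38 with HDL, and those kept with HDL only spread upwards from a median of 1.77 without stimulus to 2.87 with HDL.

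KOIN, the correction the study introduced, calls peaks with the KO library as control and then drops those with a WT/KO under 2. It kept 317 of the 587 sites (54.0%) with HDL, against 54.9% of all HDL peaks, and 192 (32.7%) without stimulus, against 20.7% of all unstimulated peaks. Of the sites, 141 (24.0%, Wilson 95% interval 20.7 to 27.6) were kept in both conditions, against 11.3% of all shared peaks, and 6 of the 88 sites with a score of at least 100 in both lists (6.82%). A further 176 were kept with HDL only, 51 without stimulus only, and 219 in neither. On repeats in both lists 48 of 1070 (4.49%, 3.40 to 5.90) were kept in both.

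The classes are drawn from the same reads as the density ratio, so their ratios are a description. Sites kept in both conditions had a median WT ratio of 1.19 and a KO ratio of 1.14. Those kept with HDL only had a WT ratio of 1.23 and a KO ratio of 0.721, and 72 of these 176 had at least 1.5-fold lower KO density with HDL. Those kept without stimulus only had a WT ratio of 1.00 and a KO ratio of 1.64. In both classes the median KO density was thus the lower in the condition that kept the site. Sites kept in neither had ratios of 1.02 and 0.992, and 11 of these 219 were denser and 9 less dense by 1.5-fold. Of the 70 denser sites KOIN kept 55 with HDL, and of the 12 less dense sites 1.

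The libraries of HDL followed by CpG sorted the sites by reads that the ratio does not use. Of the 587 sites 405 had a peak there, of which KOIN kept 138. These 138 had a median WT ratio of HDL to unstimulated of 1.23, with 28 (20.3%) denser by 1.5-fold and 0 less dense, and a KO ratio of 1.03. The 267 sites with a peak that was not kept had a median WT ratio of 1.07 and 26 denser sites (9.74%), and the 182 without a peak 1.09 and 16 denser sites (8.79%). Over all 587 sites 11.9% were denser and 2.04% less dense, and over all shared peaks 13.4% and 3.49%. The difference between the classes was not tested. At the 405 sites the median WT density was 15.7 tags per kb unstimulated, 18.6 with HDL and 16.1 with HDL + CpG. In the same sequence of conditions, the medians were 14.9, 18.8 and 14.2 tags per kb at the 83 of these that KOIN kept both unstimulated and with HDL. At the 172 that it kept in neither of these conditions, the largest class, they were 18.2, 18.2 and 19.3, so that HDL was not the highest there.

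**Figure D3:**
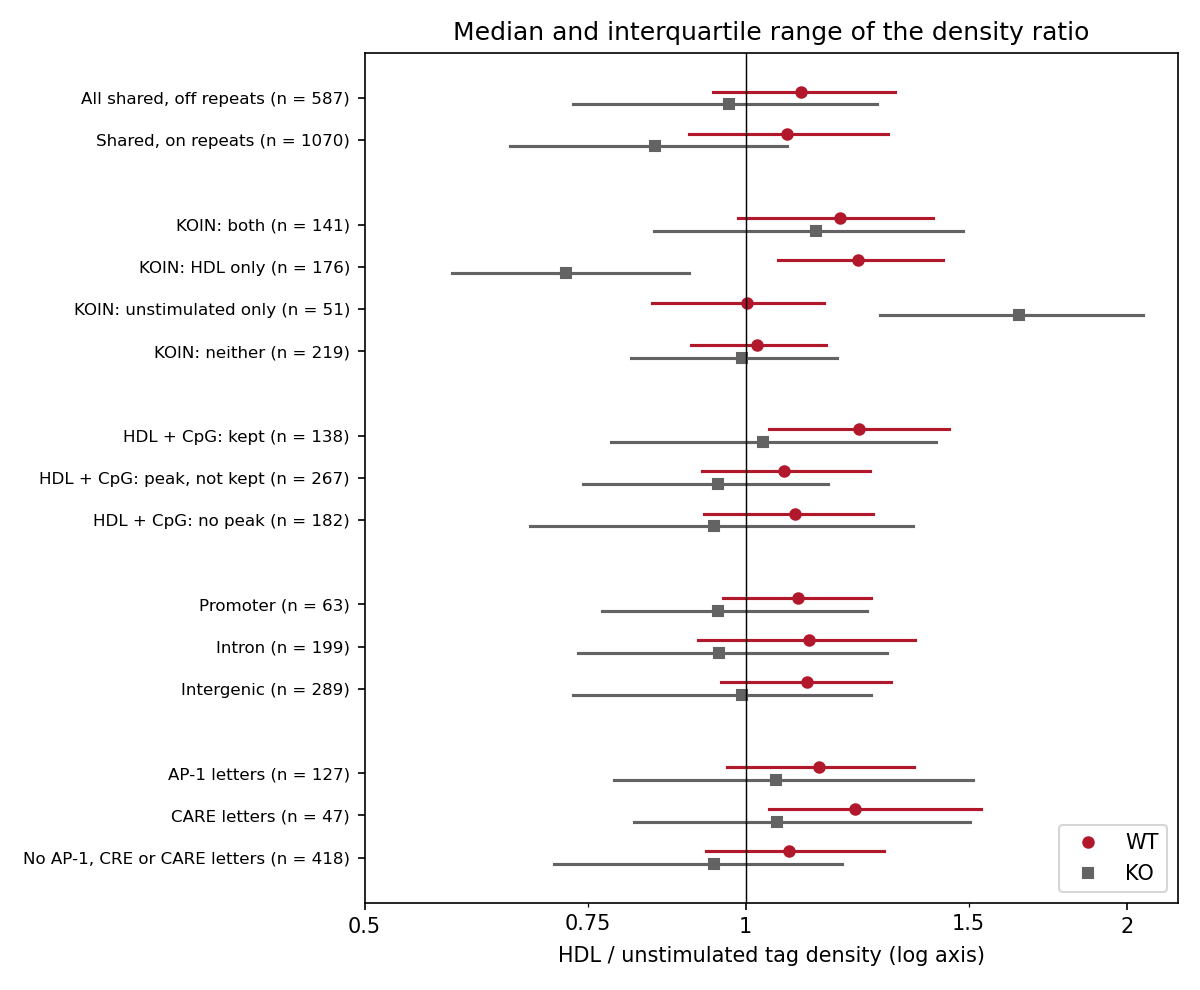
Median (point) and interquartile range (line) of the HDL to unstimulated tag density ratio (log axis) in WT and KO libraries, for classes of shared peaks with the number of peaks in each. The WT median is lowest, at 1.00, in peaks kept without stimulus only, and the KO median is 0.721 in peaks kept with HDL only and 1.64 in those kept without stimulus only.

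The sites lay mostly away from genes' start sites, and the median ratio was similar in every place. There were 63 promoter, 199 intronic and 289 intergenic sites and 36 in other parts of genes. The median WT ratio was 1.10 at promoters, 1.12 in introns, 1.12 between genes and 1.09 elsewhere in genes. At promoters 11 of 63 (17.5%) were denser by 1.5-fold, against 11.9% of all 587 sites and 13.4% of all shared peaks. At 1 promoter the density was lower by 1.5-fold. The 63 promoter sites are too few to read a difference from these shares. The 128 sites over 100 kb from the nearest start site had a median ratio of 1.04. Of the intronic sites, 59 of 199 (29.6%, Wilson 95% interval 23.7 to 36.3) were kept by KOIN in both conditions, and of the intergenic ones 59 of 289 (20.4%, 16.2 to 25.4).

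No site on a sex chromosome was denser by 1.5-fold, against 70 of 542 autosomal sites (12.9%) and 13.4% of all shared peaks. The sites on X and Y are too few to read a share from. The 37 sites on X had a median WT ratio of 0.978 and the 8 on Y one of 0.997. WT and KO tags were nearly equal on X, with a median WT/KO of 1.01 without stimulus and 1.05 with HDL. The 542 autosomal sites had a median WT ratio of 1.13. Sites with a high KO density had similar values. KO tags set these quartiles and are also the lower term of WT/KO, so the difference in WT/KO between quartiles is in part fixed beforehand. In the highest quartile of the mean KO density, at 13.5 tags per kb and above, the median WT ratio was 1.03 and WT/KO stood at 1.13 and 1.11 without stimulus and with HDL. In the lowest quartile, up to 6.01 tags per kb, WT/KO stood at 2.92 and 3.19 and the WT ratio at 1.13. The change of WT/KO within a site had a median of 1.12 in the highest quartile and 1.10 in the lowest.

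The sequence under the sites was not used in choosing or sorting them. TGAGTCA lay within 100 bp of the centre of the HDL peak, on either strand, at 127 of 587 sites (21.6%, Wilson 95% interval 18.5 to 25.1). In windows of the same size shifted by 1000 bp it lay at 3.75%, in all HDL peaks at 16.4%, and in shared peaks on repeats at 2.24%. Off-repeat HDL peaks without an unstimulated partner held it at 28.5% (26.6 to 30.5). It was found at 37.6% (30.0 to 45.8) of the 141 sites that KOIN kept in both conditions, at 26.7% of those kept with HDL only, at 31.4% of those kept without stimulus only, and at 5.02% (2.83 to 8.77) of those kept in neither, where the shifted window gave 4.57%.

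CARE was most frequent at promoter sites. TGATGCAA lay at 47 sites (8.01%, Wilson 95% interval 6.07 to 10.49), against 0.681% in shifted windows and 3.03% of all HDL peaks. Off-repeat HDL peaks without an unstimulated partner held it at 4.03% (3.26 to 4.97). Of the 63 promoter sites 15 (23.8%, 14.99 to 35.6) held it, 11 of 199 in introns (5.53%) and 20 of 289 between genes (6.92%). A promoter site held TGAGTCA in 8 of 63 (12.7%). CRE was found once, at Becn1. Of the other sequences searched, the PU.1 letters GAGGAAGT lay at 25 sites, the GC box GGGGCGGG at 11, the C/EBP letters TTGCGCAA at 2 and the E-box TCACGTGA at 1. None of these 7 sequences holds another, and a match says only that the letters are there.

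The 47 sites with CARE had a median WT ratio of 1.22, with 13 of 47 (27.7%) denser by 1.5-fold and 0 less dense, against 57 of 540 (10.6%) and 12 of 540 among sites without it, a difference that was not tested. The KO ratio of the 47 had a median of 1.06, with 12 sites at least 1.5-fold higher and 5 lower. Their median WT/KO was 1.95 without stimulus and 2.36 with HDL, and the change within a site had a median of 1.05, against 1.14 over all 587 sites. The median ratio was 1.27 at the 32 sites away from promoters, of which 10 were denser by 1.5-fold, and 1.10 at the 15 promoter sites, of which 3 were. Of the 127 sites with TGAGTCA, 17 (13.4%) were denser, at a median ratio of 1.14, and 1 was less dense. The 418 sites with none of the 3 bZIP sequences had a median of 1.08, with 41 denser.

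**Figure D4:**
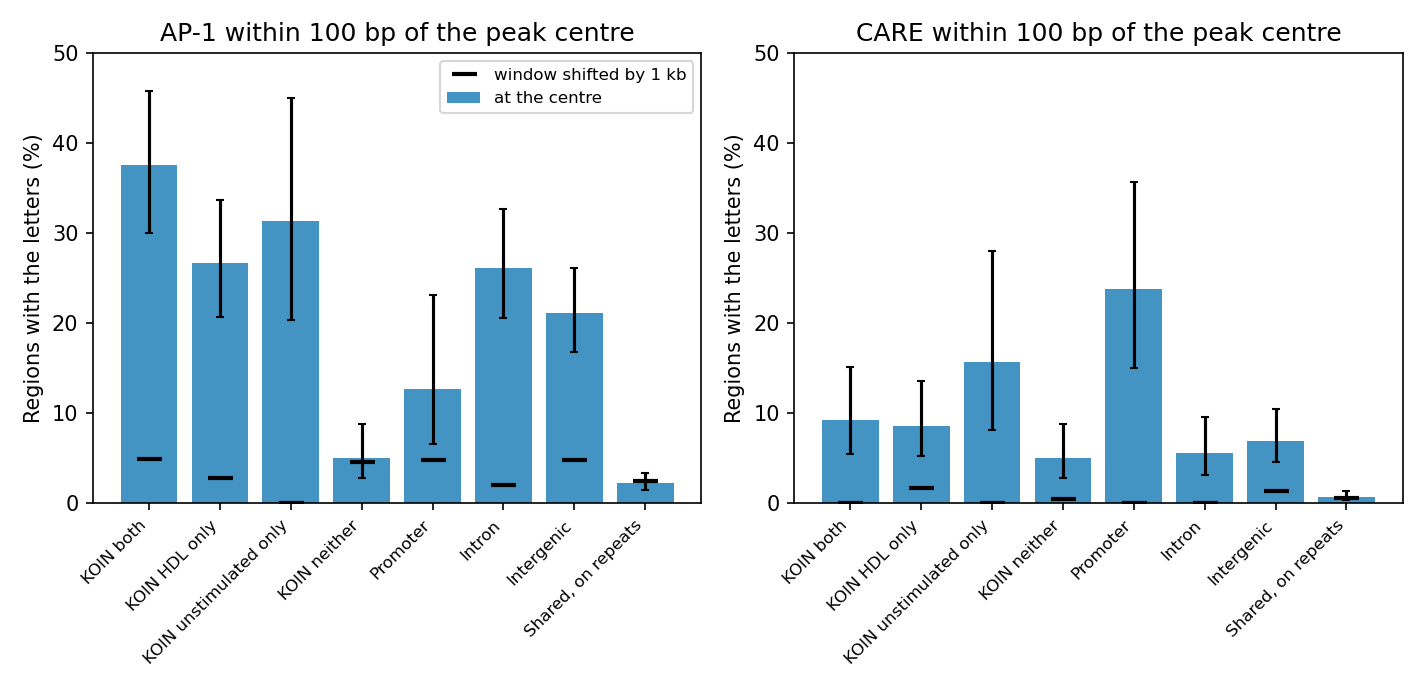
Share of sites (%) with the AP-1 letters (left) and the CARE letters (right) within 100 bp of the peak centre, by KOIN class, by place, and in shared peaks on repeats. Error bars are Wilson 95% intervals and black marks the share in windows shifted by 1 kb. The AP-1 share is 37.6% in peaks kept in both conditions and 5.02% in those kept in neither, and the CARE share is highest at promoters, at 23.8%.

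Genes below are those nearest to a site and need not be the ones it acts on. The sites named were chosen by their values, so their ratios are a description, and the counts of single gene lists are too small to set against the shares over all 587 sites. The 12 sites with the highest lower bound had ratios between 1.55 and 2.13. At the site 10.0 kb upstream of Rhob, a small GTPase of actin and endosome traffic, WT cells had 13.3 tags per kb without stimulus and 28.4 with HDL, and KO cells had 10.8 and 5.77. Its ratio was 2.13 (1.46 to 3.17), and WT/KO went from 1.24 to 4.93. At the site in intron 2 of Slc6a6, the taurine transporter, WT cells had 12.8 and 25.4 tags per kb and KO cells 7.48 and 6.41, a ratio of 1.99 (1.398 to 2.86). At both, the WT density was higher and the KO density lower with HDL.

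The site 70.8 kb upstream of Jarid2, a cofactor of Polycomb complex PRC2, had 16.4 and 32.9 WT tags per kb, a ratio of 2.01 (1.37 to 2.97). Its KO density was higher with HDL as well, at 9.08 against 2.56 tags per kb, and WT/KO went from 6.39 to 3.62. The other shared site of Jarid2, 68.9 kb downstream, had a ratio of 0.917 (0.551 to 1.503). The site 26.1 kb upstream of B4galt5, a galactosyltransferase of glycolipid synthesis, held CARE and had 13.5 and 26.4 WT tags per kb against 8.41 and 5.99 in KO. Its ratio was 1.965 (1.29 to 3.02). The sites near Basp1 and in Tmem189 had ratios of 2.03 (1.395 to 2.98) and 1.94 (1.31 to 2.91) and were, like those of Rhob, Slc6a6 and B4galt5, kept by KOIN with HDL only.

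Other sites of this group were dense in KO as well. The site nearest to 1700019M22Rik, 1015 kb away, had 88.2 and 179 WT tags per kb against 97.1 and 126 in KO. The one nearest to Nxph1 had 49.6 and 96.3 against 43.2 and 55.6. The promoter site of Tas2r134, a bitter taste receptor, had 91.3 and 156 WT tags per kb against 55.6 and 38.5 in KO. Its HDL peak was 684 bp wide and the unstimulated one 950 bp. KOIN kept none of these 3, although WT/KO at Tas2r134 went from 1.64 to 4.06 (3.39 to 4.88). The remaining sites of the group, near 1700040N02Rik, 4930519H02Rik and Themis3, had ratios of 2.10, 1.98 and 1.55.

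The 8 sites with the lowest upper bound had ratios between 0.532 and 0.827. At the promoter of Crebzf, which encodes a bZIP protein of the ATF/CREB family, WT cells had 197 tags per kb without stimulus and 111 with HDL, a ratio of 0.562 (0.491 to 0.644). KO cells had 111 and 49.5 tags per kb there, a KO ratio of 0.445, so the density was lower with HDL in cells without ATF3 too, and the HDL peak was called at 911 bp in place of 672 bp. At Zrsr1, a splicing factor gene, WT cells had 34.1 and 18.2 tags per kb and KO cells 14.5 and 10.0, a ratio of 0.532 (0.365 to 0.770). The sites near Tmem132b, 3830403N18Rik, Limd1, Tex35 and Oip5 had ratios between 0.565 and 0.709, and the other shared sites nearest to 3830403N18Rik ranged up to 1.03. Their KO ratios lay between 0.426 and 0.969. Cdk5rap2, a centrosomal protein gene, carried the densest shared site. Its intronic peak had 1032 and 853 WT tags per kb, a ratio of 0.827 (0.783 to 0.872), yet 2686 and 2685 WT reads, the HDL peak being 830 bp wide and the other 701 bp. Its WT/KO was 1.20 and 1.03.

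The sites with the highest MACS score were mostly dense in KO as well. At Rn45s, the ribosomal RNA precursor, WT cells had 430 and 433 tags per kb and KO cells 332 and 351, a ratio of 1.01 (0.981 to 1.04). Near Col19a1, a collagen gene, the WT density of 127 and 142 tags per kb was met by 128 and 153 in KO. Near Chst2, a carbohydrate sulfotransferase gene, WT cells had 621 and 773 tags per kb and KO cells 347 and 203, so that WT/KO went from 1.79 to 3.80 with a WT ratio of 1.24 (1.18 to 1.31). Near 4930529K09Rik the order was the same, with 508 and 615 in WT and 287 and 211 in KO. In all, 21 sites had at least 500 WT reads with HDL, of which KOIN kept 7. At these 21 the counting interval of the density ratio lay off 1 in WT at 11 and in KO at 16. A density also depends on the called width, as at Cdk5rap2, where 2686 and 2685 WT reads gave a ratio of 0.827. These counts therefore do not show that the reads at a site differed between libraries, and the share due to width was not tested.

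Of the bZIP genes, 7 had 9 shared sites, with a median ratio of 1.17. At the promoter of Fosb, a JUN partner in AP-1, WT cells had 12.3 tags per kb without stimulus and 21.3 with HDL, and KO cells 7.99 and 4.59. Its ratio was 1.73 (1.17 to 2.60), the only one of the 9 past 1.5-fold. Atf3 itself had 3 sites. Its promoter had 18.9 and 20.8 WT tags per kb and 10.97 and 11.5 in KO, a ratio of 1.10 (0.780 to 1.55), and KOIN kept it in neither condition, with WT/KO at 1.73 and 1.81. The upstream sites at 18.0 kb and 47.3 kb had 12.9 and 18.4, and 14.02 and 19.99 WT tags per kb. Their ratios were 1.43 (0.936 to 2.20) and 1.43 (0.979 to 2.09), and KOIN kept both sites in both conditions. The Jun and Ddit3 promoters, for AP-1's main subunit and the stress factor CHOP, had ratios of 1.17 and 0.955. Bach2, a repressor that pairs with MAF proteins, had a distal site with a ratio of 1.34 (0.913 to 2.00).

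Genes of endoplasmic reticulum and integrated stress had 5 sites with a median ratio of 1.43, against 1.11 over all 587 sites. Of the 5 sites 3 had intervals above 1, against 15.2% of the 587 sites and 17.9% of all shared peaks, and 5 sites are too few to read a share from. At Trib3, a pseudokinase that restrains ATF4, WT cells had 12.99 and 22.1 tags per kb and KO cells 5.69 and 5.21, a ratio of 1.71 (1.18 to 2.50). At the promoter of Ppp1r15b, the constitutive eIF2-alpha phosphatase subunit, WT cells had 17.3 and 24.8 and KO cells 10.4 and 9.08, a ratio of 1.43 (1.02 to 2.03). In intron 1 of Slc7a5, the large neutral amino acid transporter, WT cells had 15.04 and 22.3 and KO cells 7.96 and 7.96, a ratio of 1.48 (1.04 to 2.12). At the promoter of Herpud1, a factor of protein degradation at the reticulum, WT cells had 20.1 and 25.1 tags per kb, a ratio of 1.252 (0.889 to 1.78). KOIN kept these 4 with HDL only, and the fifth site of the list, at Ddit3, in neither condition.

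Lists of amino acid supply genes and of aminoacyl-tRNA synthetases, the enzymes that charge tRNAs, were drawn up after the names of the promoter sites had been seen. Of 17 synthetase genes 4 had a shared site, each with CARE. At Yars WT cells had 13.4 and 22.6 tags per kb and KO cells 3.51 and 4.83, a ratio of 1.69 (1.16 to 2.48). At Aars WT cells had 18.0 and 19.7 and KO cells 6.91 and 4.85, a ratio of 1.10 (0.750 to 1.61). Mars and Iars had ratios of 0.915 (0.605 to 1.38) and 0.861 (0.540 to 1.38). The intervals of Aars, Mars and Iars include 1, and no difference between the 4 was tested. Pycr1, an enzyme of proline synthesis, had a promoter site with a ratio of 1.17 (0.743 to 1.81). The translation repressor genes Eif4ebp1 and Eif4ebp2 had 1.41 (0.944 to 2.12) and 0.859 (0.496 to 1.47).

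Cytokine and chemokine genes had 8 sites at 6 genes, with a median ratio of 1.27 in WT and 1.26 in KO. The site 2.42 kb upstream of Il1b, which encodes interleukin 1 beta, had 13.6 and 24.3 WT tags per kb and 8.49 and 11.6 in KO, a ratio of 1.79 (1.16 to 2.80). The site 14.8 kb upstream of Ifnb1, for interferon beta, had 20.1 and 25.6 in WT and 2.21 and 6.42 in KO. Its WT ratio was 1.27 (0.909 to 1.79), and WT/KO was 9.08 without stimulus and 3.98 with HDL. The site 38.5 kb upstream of Spp1, for osteopontin, had 15.8 and 23.3 in WT and 12.5 and 2.83 in KO. Its WT ratio was 1.48 (0.959 to 2.31), and WT/KO went from 1.26 to 8.27, a change of 6.55 (3.10 to 13.9) beside a KO ratio of 0.226. Cxcl1, a neutrophil chemokine gene, had 12.99 and 15.6 WT tags per kb. Of the Toll-like receptor and NF-kB genes, Nfkbiz, an inducible nuclear IkB protein, had a distal site with 19.4 and 34.1 WT tags per kb against 7.09 and 8.19 in KO, a ratio of 1.76 (1.28 to 2.42). Tlr2 had a site with 13.2 and 13.7.

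**Figure D5:**
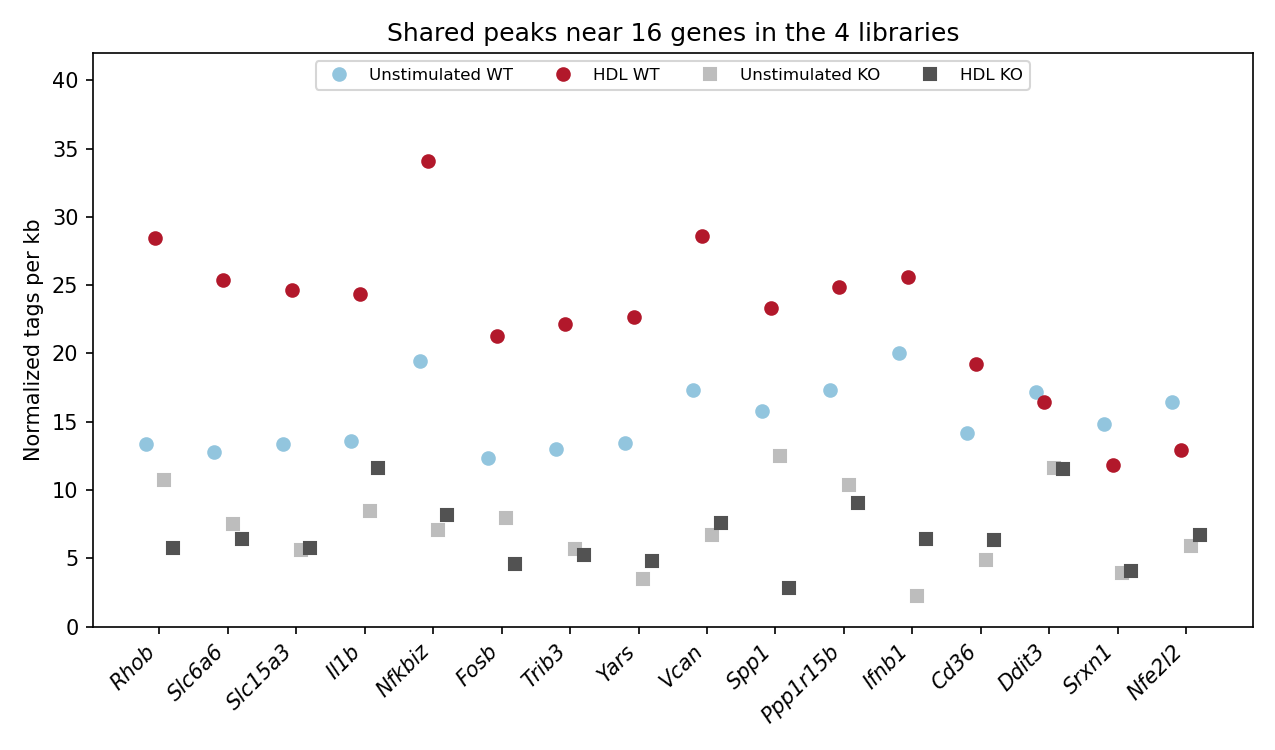
Normalized tags per kb at the shared peaks nearest to 16 genes, in unstimulated and HDL libraries of WT (circles) and KO (squares) cells, 1 pooled library each. The 16 genes were picked by hand from the named sites. WT points lie above both KO points at every peak shown, while WT/KO was below 1 at 54 of all 587 sites without stimulus and at 59 with HDL. HDL WT is above unstimulated WT at all but Ddit3, Srxn1 and Nfe2l2, and the KO points lie far apart at Rhob, Spp1 and Ifnb1.

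Lipid and cholesterol genes had 4 sites at 3 genes. None of the 4 passed 1.5-fold, which at a share of 11.9% over all 587 sites says nothing about the list. At the intronic site of Cd36, a scavenger receptor for oxidized lipoproteins, WT cells had 14.2 and 19.3 tags per kb and KO cells 4.91 and 6.34, a ratio of 1.36 (0.895 to 2.08). Abca1, the cholesterol exporter that loads HDL, had sites in intron 5 and 21.9 kb upstream. Their ratios were 1.49 (0.969 to 2.32) and 0.929 (0.613 to 1.403). The distal site of Ch25h, cholesterol 25-hydroxylase, had 13.6 and 17.8 WT tags per kb, a ratio of 1.31 (0.861 to 2.00). All 4 hold TGAGTCA.

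Macrophage identity genes had 6 sites at 5 genes with a median ratio of 1.41. The site nearest to Vcan, a matrix proteoglycan gene, had 17.3 and 28.6 WT tags per kb against 6.67 and 7.59 in KO, a ratio of 1.65 (1.16 to 2.39). The site 2.00 kb upstream of Lgals3, for galectin 3, had 11.7 and 18.3 against 7.02 and 8.00, a ratio of 1.57 (1.02 to 2.43). Fcgr3, for an Fc receptor, had 2 sites, 14.5 kb downstream and 5.56 kb upstream, with ratios of 1.42 (0.935 to 2.19) and 0.944 (0.727 to 1.23). Lysosome and autophagy genes had 3 sites. The promoter of Slc15a3, a lysosomal peptide transporter, had 13.4 and 24.7 WT tags per kb and 5.60 and 5.78 in KO, a ratio of 1.84 (1.27 to 2.70). Becn1, for an autophagy protein, had a ratio of 0.880.

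Other lists held few sites. Both oxidative stress genes had ratios below 1 whose intervals include 1. The promoter of Srxn1, for sulfiredoxin, had 14.9 and 11.8 WT tags per kb, and the distal site of Nfe2l2, for NRF2, had 16.5 and 12.9, with ratios of 0.798 (0.476 to 1.35) and 0.787 (0.496 to 1.247). Ccnd3, a D-type cyclin gene, had an intronic site with a ratio of 1.70 (1.09 to 2.68). Its HDL peak was 454 bp wide with 48 WT reads, and the unstimulated one 625 bp with 38. Cdkn1a and Cdkn2a, for cell cycle inhibitors, had ratios of 0.846 and 0.763. Klf13, Klf7, Rara and Ets2, all transcription factor genes, had ratios of 1.43 (1.03 to 2.00), 1.38, 1.18 and 1.07. The KO density at the site of Klf13 was 11.7 tags per kb without stimulus and 6.28 with HDL, and at that of Ets2 7.68 and 1.97. Zfp36l2, an mRNA decay factor gene, had 1.12. The interferon list had 4 sites, among them those of Irf2bp2, with ratios of 1.14 at both, and of Oasl1, with 0.968. Il2 and Rag2, lymphocyte genes, had 1.32 and 0.971. None of the sites was nearest to a gene of the neuronal or the muscle list.

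Olfactory and vomeronasal receptor genes, which belong to sensory neurons, had 14 sites at 5 genes. Their median WT ratio was 1.02 and their KO ratio 1.06. Their WT/KO had a median of 0.967 without stimulus and 0.926 with HDL, and KOIN kept 1 of 14. The site nearest to Vmn1r77 had 18.9 and 29.3 WT tags per kb and 27.2 and 30.7 in KO, a ratio of 1.55 (1.20 to 1.99), with the HDL peak 1045 bp wide and the unstimulated one 2021 bp. The promoter sites of Speer7-ps1 and 4931408C20Rik, among the highest promoter sites by score, likewise had about as many tags in KO as in WT, with WT/KO between 0.889 and 1.09. The promoter of D16Ertd472e had 18.9 and 25.2 WT tags per kb against 9.07 and 8.80.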

How the data were processed

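The authors aligned reads to mm9, called peaks with MACS on WT libraries (standard) or with the KO library as control (KOIN), and used HOMER for annotation. Versions in the submitters' processing notes are MACS 1.4.2, HOMER 4.3, CASAVA 1.8 and Bowtie 0.12.8. The score in the deposited lists is that of MACS. The signal is the tag coverage of a peak that the authors normalized to 10000000 tags, and the peak starts, ends and distances are other deposited columns. The authors' column of WT/KO fold was not used, and WT/KO was recomputed from the tags. The header totals gave whole reads per peak, to within 0.005 tags.

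Peaks overlapping by at least 1 bp were paired, and the nearest gene was taken from the list. Densities are tags per kb of called width. Ratios have exact (Clopper-Pearson) 95% intervals, changes of WT/KO Woolf intervals and shares Wilson ones. A call is a 1.5-fold difference. With 1 library per group there were no p-values. The sites described are the 12 highest and 8 lowest by interval bound, the 10 highest by score, the 5 highest promoter sites by score, all sites of Atf3 or Cd36, and up to 4 sites per gene list by score. Jun and the genes of 2 added lists were named after their values were seen. Sites, sequences and lists were chosen with earlier results of these data known. Ratios and intervals were tested on simulated data. A list of barcodes was not used for values. Some items chosen by these rules are not reported here. Python 3.11.15, numpy 2.4.6, pandas 2.3.3, scipy 1.17.1 and matplotlib 3.10.9 were used.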

Additional observations from a re-analysis of the deposited data

Results flagged for a closer look

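At 6 of the named sites WT/KO lay on opposite sides of 1 in the 2 conditions, a difference that was not tested. With HDL it was 1.42 at 1700019M22Rik, from 0.909 without stimulus, and 1.13 at Olfr1350, from 0.801. It was 0.911 at Satl1, from 1.09, and 0.869 at D5Ertd579e, from 1.21. It was 0.861 at Olfr161, from 1.17, and 0.889 at Speer7-ps1, from 1.09. The counting intervals of WT/KO included 1 in both conditions at Satl1 and Olfr1350, and without stimulus at 1700019M22Rik. At D5Ertd579e, Olfr161 and Speer7-ps1 they excluded 1 in both conditions. KOIN kept none of these 6 sites in either condition, and they lie near genes that are not named in the lists of macrophage genes. With 1 library per group no outlier among samples could be sought.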

How the results depend on the processing

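No paired analysis was possible because each group is 1 pooled library. No alternative turned a median ratio below 1. Requiring an overlap of 50% of both peaks and using autosomes only moved no value past its interval or by 1.5 times. Summing overlapped peaks could not move a value, because no site had more than 1 unstimulated peak. With a score of at least 60 in both lists 27 sites were denser, 5 less dense and 49 kept in both, of 234, with WT/KO at 2.20 with HDL and 1.70 without. At a score of at least 100 these were 8, 2 and 6 of 88, with WT/KO at 1.26 and 1.24 and a median ratio of 1.05. The change of WT/KO within a site had a median of 1.13 there. Per peak, not per bp, the ratio was 1.15 with 124 and 22 calls. Scaled by the shared peaks on repeats (ratio 1.08), it was 1.03 with 43 denser. With KO density subtracted, it was 1.38 with 208 and 49 calls of 505. Among pairs of similar width, 45 and 4 sites were called of 383. With at least 40 WT reads in each library, 38 were denser of 340, with WT/KO at 2.21 with HDL. A pseudocount of 1 tag gave WT/KO of 2.13 and 1.72. At 2-fold 5 sites were denser and 0 less dense, and by the counting interval 22 were less dense. Scaling by the sites kept in neither condition and leaving out sites with 500 WT reads or more, both chosen after seeing the data, gave 1.08 with 64 and 12 calls and 1.11 with 69 and 12. The cause of these moves was not tested beyond the fewer sites that the limits leave. Of 70 alternative values, 42 were unmoved, among them those from summing, and 28 moved. At a median of 46 WT reads a single ratio cannot show small differences.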

Other observations

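The list of raw read files names 4 files with 2 barcodes for unstimulated WT cells, 5 with 2 for HDL WT cells, 4 with 2 for unstimulated KO cells and 3 with 1 for HDL KO cells, while the labels name 3 biological replicates of each. Of the barcodes of HDL WT cells, 1 was also used for unstimulated KO cells. How the files were joined, and any part of this in the ratios, was not tested.

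Among sites with CARE outside the named ones, chosen after their values were seen, the intronic site of Eif1, a translation initiation factor gene, had a WT ratio of 2.00, the distal site of Slc38a2, a neutral amino acid transporter gene, 1.35, and the intronic site of Ero1l, an oxidase of the endoplasmic reticulum, 1.20. KOIN kept Eif1 and Slc38a2 in both conditions and Ero1l in neither. The promoters of Ifitm6 and Card9 had 1.67 and 1.60.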
